A study of Notophthalmus viridescens with 12 samples.

Results

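A set of 125 transcripts, of 856451 in an assembled newt transcriptome, was high in the dorsal iris at 6 h post-lentectomy (hpl) and low in the intact iris and again at 1 and 4 days post-lentectomy (dpl). The transcripts were chosen by their measured values in all 12 libraries. The mean value at 6 hpl had to reach 50, and the mean log2(value + 1) of the other 3 groups had to lie within 1.5 of each other. The lowest of the 3 values at 6 hpl also had to lie at least 1.5 log2 units above the highest of the 9 other values, a distance called the gap. The limit of 200 transcripts was not reached. Their pattern over the 4 groups is therefore given as a description. Shares over all transcripts stand beside the members' counts as background. The choice of the 125 left no library unused. Libraries held out of a separate choice on the others are read below, and the IDs were not used by the rule. The IDs name transcripts assembled from the reads of each condition, so their independence from the values was not established.

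The animals were adult Notophthalmus viridescens, the eastern newt, taken from the wild, with no genetic change given in the labels. Anaesthesia with 0.1% tricaine preceded lentectomy, the surgical removal of the lens. There were 3 libraries each of intact eyes and of eyes at 6 hpl, 1 dpl and 4 dpl. Each library came from dorsal irises of both eyes of 3 or 4 animals, so the spread between libraries is that between pools, and the values of single animals are not seen. The labels did not say whether a sham operation was made, so the effect of lens removal and that of anaesthesia and surgery cannot be told apart.

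Newts can rebuild a lens from the pigment epithelium of the dorsal iris, whose cells leave their differentiated state, divide and turn into lens cells. Wounding is followed within hours by an early response, in which immediate-early genes, many of them encoding transcription factors, are switched on without new protein synthesis. Their transcripts are commonly short-lived, and many return towards their starting level soon after. Genes of inflammatory signalling are another class known for brief induction after injury. The table gives each transcript an ID and no gene name, so the members were not assigned to these classes, and the tissue label was not checked against marker genes. As 1 gene can have several IDs (isoforms or pieces of a transcript), 125 transcripts are not 125 genes.

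Values were a normalised abundance without a fixed sum, and depth could not be recovered from them. The values of a library summed to between 27737613 and 40770545, with a median transcript between 7.94 and 8.54. A pair of libraries stood apart in 11 transcripts, none of them a member and all chosen after their values were seen. Together the 11 took 0.743% of the summed value of intact replicate 3 and 0.188% of that of 6 hpl replicate 1. Their share was 0.0065% in 6 hpl replicate 2 and lower in the remaining 9 libraries. In bulk tissue, a change in the number of cells of a type and a change in RNA per cell cannot be told apart.

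Summed over the members, the 3 libraries of 6 hpl stood far above the 9 others, as the rule requires, and the 3 other groups lay close together. The summed value of the 125 transcripts was 20169, 16294 and 16815 in the libraries of 6 hpl. It was 1436, 1654 and 1881 in intact eyes, 2874, 2092 and 1906 at 1 dpl, and 2111, 2082 and 2095 at 4 dpl. The group mean of this sum was 17759 ± 2103 at 6 hpl, against 1657 ± 222 in intact eyes, 2291 ± 514 at 1 dpl and 2096 ± 14.5 at 4 dpl (SD, n = 3). Even at 6 hpl the members took only between 0.0419% and 0.0529% of all signal in a library.

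Single members showed the same course at lower values. The median member stood at 106, 88.5 and 90.7 in the 6 hpl libraries, with the lowest library median in replicate 2. It stood at 7.56, 8.38 and 9.41 in intact eyes, at 14.7, 12.6 and 10.04 at 1 dpl, and at 11.4, 12.04 and 8.71 at 4 dpl. A median member was thus at about the level of the median transcript of the whole table in intact eyes, left it at 6 hpl, and came closer to it again at 1 and 4 dpl.

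**Figure D1:**
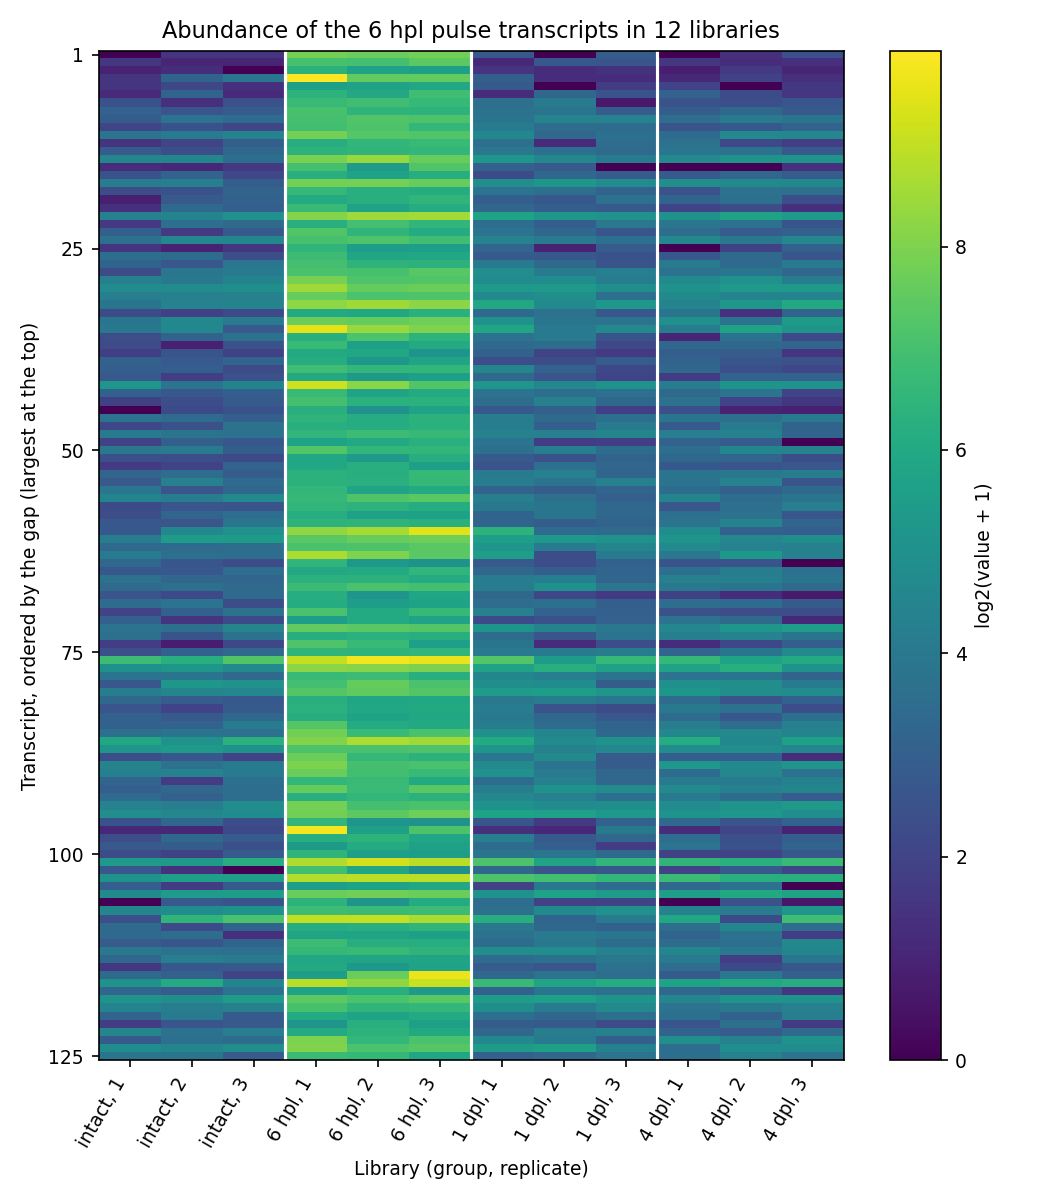
Heat map of log2(value + 1) for the 125 transcripts (rows, ordered by gap with the largest at the top) in the 12 libraries (columns, by group and replicate). The 3 columns of 6 hpl are brighter than the 9 others in every row, as the rule requires, and in 66 of 125 rows 6 hpl replicate 1 is the brightest column.

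The mean log2 value at 6 hpl exceeded that of intact eyes by 1.91 to 6.77, with a median of 3.44. From 6 hpl to 1 dpl the same transcripts fell by a median of 2.96, and between 6 hpl and 4 dpl by a median of 2.99. Over the group with the highest mean among the other 3, the 6 hpl mean was 3.71 to 60.4 times higher, with a median of 6.69. The ratio was 5 or more in 103 members, 10 or more in 24 and 20 or more in 7.

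Gaps were mostly small. They ran from 1.51 to 4.73 with a median of 1.83, and 45 members had a gap of 2 or more, 4 of 3 or more and 2 of 4 or more. The member just inside the threshold had values of 108, 96.5 and 57.2 at 6 hpl and a highest other value of 19.5, for a gap of 1.507. The transcript just outside had 105, 133 and 75.9 at 6 hpl and a highest other value of 26.2, for a gap of 1.499. These 2 transcripts are nearly alike, so the threshold cuts a continuous range.

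The other thresholds cut the table in a similar way. The lowest 6 hpl mean among members was 51.5, and the nearest transcript left out by that minimum alone had a mean of 48.9. In all, 225 transcripts with a gap of 1.5 or more were left out by the mean alone. The window on the 3 low groups left out 69 more, of which 63 had their highest low mean at 1 dpl, 4 at 4 dpl and 2 in intact eyes. These 69 were thus mostly transcripts still raised at 1 dpl, with a median log2 difference between 1 dpl and intact of 2.01. Their gap reached 5.24, above that of every member.

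By their 6 hpl mean, which the rule required to reach a level met by 7.58% of all transcripts, members were in the upper part of the table but not at its top. Their 6 hpl means had a median of 96.9 and quartiles of 68.9 and 159. A total of 68 lay below 100, 35 between 100 and 200, 20 between 200 and 500, and 2 at 500 or more. In the order of all 856451 transcripts by 6 hpl mean, the highest member was at place 5763 and the median member at place 36608. The gap did not rise with abundance among them (Pearson's r = 0.07 between the gap and the log2 6 hpl mean over the 125 members, which share the same libraries). Members with a higher 6 hpl level did have a higher level in the other groups (r = 0.72 on the log2 scale over the same 125). The gap keeps each low value below the 6 hpl values, so part of this correlation is built in.

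The most abundant member reached 515, 855 and 770 at 6 hpl. Its values were 111, 74.4 and 148 in intact eyes, 153, 42.3 and 100 at 1 dpl, and 97.6, 52.8 and 66.2 at 4 dpl. It was well above the median transcript of the table at every time point, and its gap was 1.74. At the other end, 18 members stayed below 10 in all 9 low libraries, and 11 were listed at 0 in at least 1 of them. The exact depth of each library is unknown, so no transcript was called absent on an entry of 0.

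Transcript 3_20588268 had both the largest gap and the largest rise. Its values were 228, 202 and 221 at 6 hpl. In intact eyes it was listed at 0, 1.85 and 1.80, at 1 dpl at 5.40, 0 and 6.65, and at 4 dpl at 0, 1.58 and 4.40. The 3 values at 6 hpl lay close together and far above each of the 9 others. The rise from intact to 6 hpl was 6.77 ± 0.71 log2 units and the change to 1 dpl was -5.90 ± 0.71 (limma SE). The size of the rise depends on the pseudocount, since the intact values are near 0, and it was 8.24 with a pseudocount of 0.1.

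Transcript 3_19244127 had the second largest gap, 4.21. It stood at 132, 122.7 and 170 at 6 hpl, against 1.93, 1.08 and 1.04 in intact eyes. It then stood at 1.20, 5.67 and 5.19 (1 dpl) and at 1.93, 1.40 and 1.52 (4 dpl). The 6 hpl libraries agreed within a ratio of 1.39, and the 4 dpl values had come back to the range of the intact ones. The rise was 5.93 ± 0.50 log2 units and the change to 1 dpl was -4.97 ± 0.50 (limma SE).

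The other transcripts named here owed much of their size to 1 library. Transcript 5_37365911 was at 878 in 6 hpl replicate 1 but at 48.7 and 141 in replicates 2 and 3, a ratio of 18.0 between highest and lowest. It stood at 1.17, 1.23 and 3.63 in intact eyes, at 1.56, 1.15 and 14.9 at 1 dpl, and at 1.42, 3.16 and 0.932 at 4 dpl. The groups did not overlap, yet the 6 hpl values were spread so widely that the log2 rise of 6.03 ± 0.83 (limma SE) ran from 4.90 to 6.97 when 1 library was left out. This was the second largest rise among the members, while the gap, set by the lowest 6 hpl library, was only 1.64.

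Transcript 1_2796769 was similar, with 971, 185 and 184 at 6 hpl. It was the member with the largest fall, -6.48 ± 0.67 log2 units between 6 hpl and 1 dpl (limma SE). Intact values were 1.87, 8.22 and 13.7, 1 dpl values 6.99, 1.40 and 1.47, and 4 dpl values 1.16, 2.83 and 1.4999. Here replicate 1 stood apart while replicates 2 and 3 nearly coincided. Its mean at 1 dpl and at 4 dpl was below that of intact eyes, unlike most members.

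**Figure D2:**
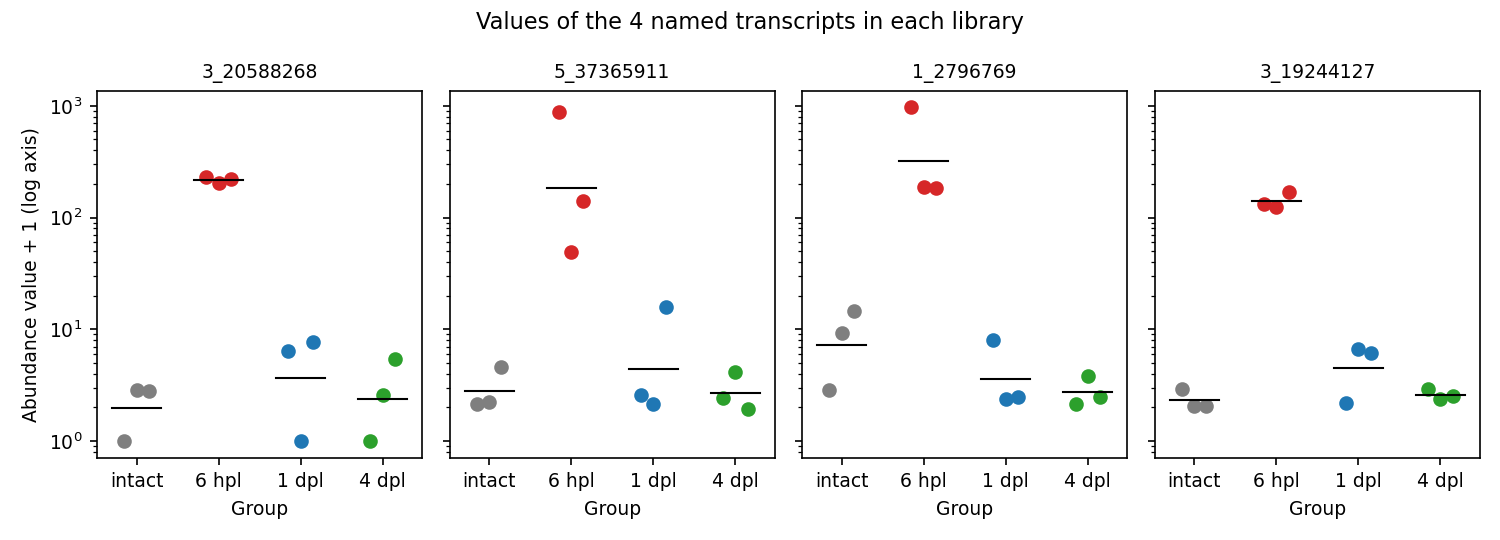
Values in each library (points, log-scaled axis of value + 1) for the 4 transcripts given by ID, by group, with a line at the mean of the 3 log values. Transcripts 3_20588268 and 3_19244127 have 3 close values at 6 hpl, whereas 5_37365911 and 1_2796769 each have 1 library, 6 hpl replicate 1, far above the other 2.

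The 6 hpl libraries did not contribute alike. Replicate 1 was the highest of the 3 in 66 of the 125 members, replicate 2 in 31 and replicate 3 in 28. Over all 855254 transcripts tested, each was the highest in 33.1% to 33.7%. The highest 6 hpl value was 1.05 to 18.0 times the lowest, with a median of 1.498. The ratio exceeded 2 in 24 members, and in 20 of these the highest library was replicate 1. Replicate 1 is also the 6 hpl library with most of the 11 transcripts that stood apart, and whether these 2 features are related was not tested. Applied without 6 hpl replicate 1, the rule was met by 151 transcripts, among them 112 of the 125 members.

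Across the members, log2 values of replicates 2 and 3 at 6 hpl had a Pearson correlation of 0.88. The pairs with replicate 1 had correlations of 0.72 and 0.71. These correlations run over 125 transcripts that share libraries, and they describe the libraries only. The median SD of log2 values over the 3 libraries of a group was 0.29 at 6 hpl, 0.47 in intact eyes, 0.53 at 1 dpl and 0.51 at 4 dpl. In the table's transcripts with a mean of 50 or more in the group concerned, these medians were 0.28, 0.41, 0.55 and 0.30. The transcripts behind them thus differ from group to group. A small spread at 6 hpl was not particular to the members.

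Because the rule had used every library, it was applied again to 2 replicate numbers at a time and the libraries of the third were read afterwards. The question was how often a transcript chosen on 8 libraries had the same pattern in 4 libraries that played no part in its choice. With 2 libraries a group the rule is easier to meet, and it chose 242, 248 and 263 transcripts when replicate 1, 2 or 3 was held out. The replicate numbers were used only as names here, and 1 library per group was read, so no p-value was computed.

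In the libraries of replicate 1, the 6 hpl value was at least 1.5 log2 units above the 3 others in 161 of 242 transcripts (66.5%), against 1.39% of all transcripts tested. In those of replicate 2 this held for 143 of 248 (57.7%), against 1.22%. In those of replicate 3 it held for 167 of 263 (63.5%), against 1.36%. The median held-out gap was 1.87, 1.68 and 1.87. In each of the 3 rounds, more than 50% of the chosen transcripts passed the same gap in libraries not used to choose them. The remainder did not. Members made up 97 of the 242, 107 of the 248 and 109 of the 263 chosen transcripts, so these shares do not describe the members alone. The transcripts were assembled from the reads of each condition, so the independence of the held-out libraries from the assembled transcripts was not established.

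Direction alone held more often than the full gap. The 6 hpl value was the highest of the 4 held-out values in 221 of 242 (91.3%), 235 of 248 (94.8%) and 236 of 263 (89.7%), against 23.9%, 24.1% and 23.4% of all transcripts tested. A closer comparison is with transcripts whose ID began with 3 or 4 and whose own held-out 6 hpl value was 50 or more. Of these, 7.5%, 5.03% and 5.35% passed the gap of 1.5. The share among chosen transcripts was above this level in each round.

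**Figure D3:**
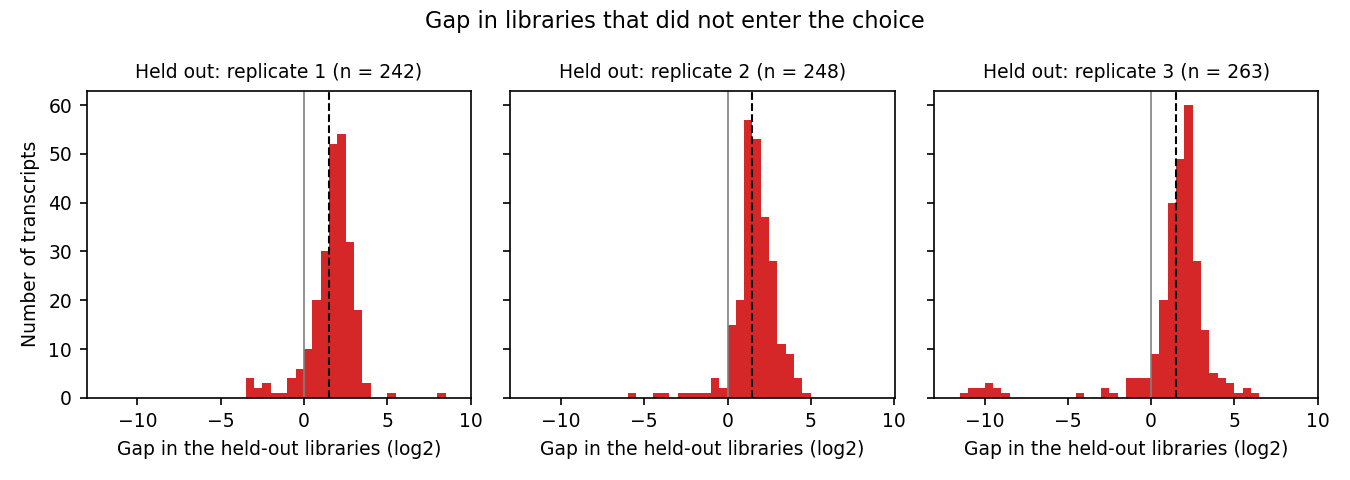
Distribution of the held-out gap, the 6 hpl log2 value minus the highest of the 3 other groups in the libraries of the replicate number not used to choose the transcripts. Each panel counts the transcripts chosen (vertical axis) per bin of the log2 gap, with a solid line at 0 and a dashed line at 1.5, and the medians are 1.87, 1.68 and 1.87. Over all transcripts tested, not drawn, they were -0.60, -0.58 and -0.63.

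Which of the other held-out libraries came closest to 6 hpl differed between the rounds. In the libraries of replicate 1 the highest other value was at 1 dpl in 182 of 242 transcripts, and in those of replicate 2 in 120 of 248. Replicate 3 gave an even split, with 84 in intact eyes, 90 at 1 dpl and 89 at 4 dpl. The held-out gap went as low as -11.3, and this end was held by the 11 transcripts described above, which were chosen without replicate 3 and were then found at 582 to 82066 in intact replicate 3.

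For completeness, the members were also looked up in a limma fit across all 855254 transcripts tested, with a Benjamini-Hochberg adjusted p of 0.05 as threshold. The rule used each of these contrasts, so the counts describe the choice of members and nothing was read from them. At 6 hpl, 124 of 125 were called higher than in intact eyes, where 2.06% of all transcripts were. From 6 hpl to 1 dpl, 121 were called lower (0.324% of all), and from 6 hpl to 4 dpl 125 were (1.79% of all). The comparisons with 6 hpl share its 3 libraries. Without 6 hpl replicate 1 the count for 1 dpl was 76, and the share of all transcripts called lower was 0.0532%.

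The member that was not called at 6 hpl varied widely in the low groups. It stood at 514, 521 and 405 at 6 hpl and at 4.34, 89.3 and 135 in intact eyes. At 4 dpl it was at 60.8, 3.72 and 118. The intact and 4 dpl libraries overlapped throughout, and the rule, which uses group means for the window, kept it as a member with a gap of 1.57.

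After the pulse, the mean of most members lay slightly above that of intact eyes. The rule bounds the distance of 1 and 4 dpl from intact to 1.5 log2 units but sets no direction. The mean at 1 dpl was above that of intact eyes in 101 of 125 members (80.8%), whereas this held for 49.2% of all transcripts tested. Among transcripts with a first digit of 3 or 4 and a 6 hpl mean of 50 or more it held for 55.7%. The median difference was 0.53 log2 units, with a range from -1.01 to 1.49.

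At 4 dpl the mean was above intact in 92 members (73.6%), against 48.8% of all transcripts tested and 57.5% of those with the same digits and a 6 hpl mean of 50 or more. The median difference was 0.34, with a range from -1.42 to 1.48. Between 1 and 4 dpl, 48 members rose in mean and 77 fell, with a median difference of -0.20. Both later groups were above intact in 84 members and both were below it in 16.

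**Figure D4:**
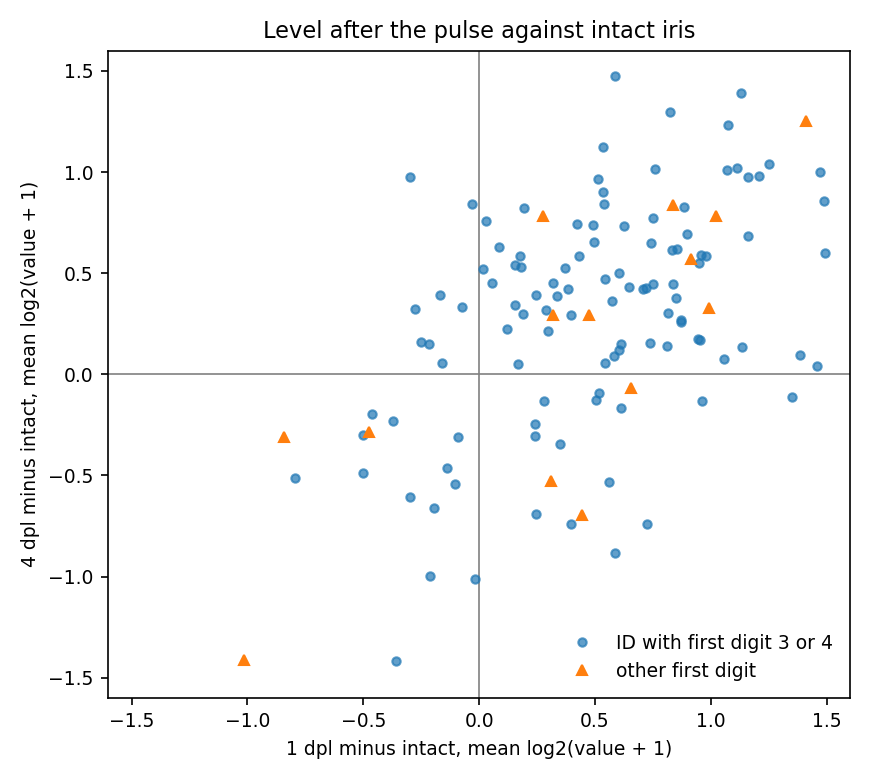
Difference in mean log2(value + 1) from intact at 1 dpl (horizontal axis) and 4 dpl (vertical axis) for each of the 125 members, with triangles for IDs whose first digit is not 3 or 4. Points lie within 1.5 of 0 on both axes, as the rule requires, with 84 to the upper right of 0 and 16 to the lower left.

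Counted by groups that do not overlap, 26 of 125 members (20.8%) had all 3 values at 1 dpl above all 3 in intact eyes, beside 9.45% of all transcripts tested. None had all 3 below, beside 9.64%. At 4 dpl, 26 members were wholly above intact, beside 13.3%, and 3 wholly below, beside 11.7%. Of transcripts with a first digit of 3 or 4 and a 6 hpl mean of 50 or more, 15.9% were wholly above at 1 dpl and 29.0% at 4 dpl, and 6.97% and 12.9% were wholly below. Beside this second background, the members' share at 4 dpl was lower in both directions. The rule caps the members' differences and not those of this background, so a lower share is partly built in. With 1 library fewer, non-overlap is easier for every transcript. Without intact replicate 3 the 1 dpl count was 40 (32%), beside 14.6% of all transcripts and 22.3% of the second background. Without 1 dpl replicate 1 it was 30 (24%), beside 14.5% and 18.3%. Without 1 dpl replicate 2 it was 40 (32%), beside 15.4% and 29.5%. Without 1 dpl replicate 3 it was 48 (38.4%), beside 15.1% and 20.2%. The 4 dpl count was 42 (33.6%) without 4 dpl replicate 3, beside 18.1% and 31.6%.

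These counts also depended on the scaling of the libraries. Scaling to equal totals or on abundant transcripts moved the median of all transcripts between 4 dpl and intact from -0.03 to -0.19 or -0.30. The members' own median between 4 dpl and intact, 0.34 as deposited, was 0.21 with equal totals and 0.10 with scaling on abundant transcripts. The 4 dpl mean was above intact in 78 and 71 members under these scalings, against 92 as deposited. For 1 dpl the members' own median was 0.54 and 0.37, with 101 and 95 members above intact. Relative to the median of all transcripts, the members' median at 4 dpl was 0.37 as deposited, 0.40 with equal totals and 0.41 with scaling on abundant transcripts. For 1 dpl these values were 0.55, 0.55 and 0.54. The counts wholly above intact at 4 dpl were 15 (12%) with equal totals and 10 (8%) with scaling on abundant transcripts, beside 10.5% and 8.69% of all transcripts. At 1 dpl they were 26 (20.8%) and 17 (13.6%), beside 9.39% and 6.9%. The members' share at 4 dpl was thus near that of all transcripts under both scalings.

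By the limma threshold, 3 members were called higher at 1 dpl than in intact eyes, where 1.94% of all transcripts were called higher, and 25 were higher at an unadjusted p under 0.05, beside 8.09% of all. At 4 dpl 0 were called in either direction, where 3.88% of all transcripts were called higher and 2.37% lower. At an unadjusted p under 0.05, 17 members were higher and 3 lower, beside 11.3% and 9.65% of all. Between 1 and 4 dpl 0 were called in either direction, where 0.509% of all were called higher and 0.21% lower. At an unadjusted p under 0.05, 1 member was higher and 7 were lower, beside 6.84% and 5.22% of all. The rule caps these differences, so a low count, such as the 0 at 4 dpl, was built in. The rule also used the 1 dpl and intact values, so nothing was read from the 25 of 125 members with an unadjusted limma p under 0.05. The 3 calls at 1 dpl fell to 0 or 1 under several other settings.

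The clearest of the 3 stood at 32.6, 47.6 and 46.6 in intact eyes and at 436, 483 and 492 at 6 hpl. It was at 142, 120 and 94.8 at 1 dpl and at 108, 73.6 and 76.0 at 4 dpl. All 6 later values lay above the intact ones, in a steady descent of group means, and 17.9% of the linear rise was kept at 1 dpl and 10.1% at 4 dpl. This was the largest share kept at 1 dpl by any member. The median member kept 4.14% of its rise at 1 dpl and 2.80% at 4 dpl, and more than 10% was kept by 13 members at 1 dpl and by 10 at 4 dpl.

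Among the 9 low libraries, the one closest to the pulse was most often 1 dpl replicate 1. It was the highest low library in 41 members (32.8%) and 1 dpl replicate 2 in 27 (21.6%), while each of the others was so in 4 to 14. In transcripts with a first digit of 3 or 4 and a 6 hpl mean of 50 or more, the highest shares were those of 4 dpl replicate 3 with 20.7% and 1 dpl replicate 1 with 17.8%. By group, the highest low mean was at 1 dpl in 68 members, at 4 dpl in 41 and in intact eyes in 16. The lowest was in intact eyes in 84. Leaving out 1 dpl replicate 1 raised the number of transcripts meeting the rule to 190, with 121 of the 125 members among them.

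The IDs carried a pattern that the rule did not use. An ID is a digit, a low line and a number, and no source used here says what the first digit stands for. Of the 125 members, 61 had a first digit of 3 and 50 a first digit of 4, together 88.8%. These digits began 30.4% of all IDs and 32.5% of those of transcripts with a 6 hpl mean of 50 or more. Digits 1, 2 and 7 each had 2 members, digits 5 and 6 had 4 each, and digits 8 and 9 had none. Per 1000 transcripts with a 6 hpl mean of 50 or more, digit 3 gave 5.63 members, digit 4 gave 4.87 and no other digit more than 0.583.

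**Figure D5:**
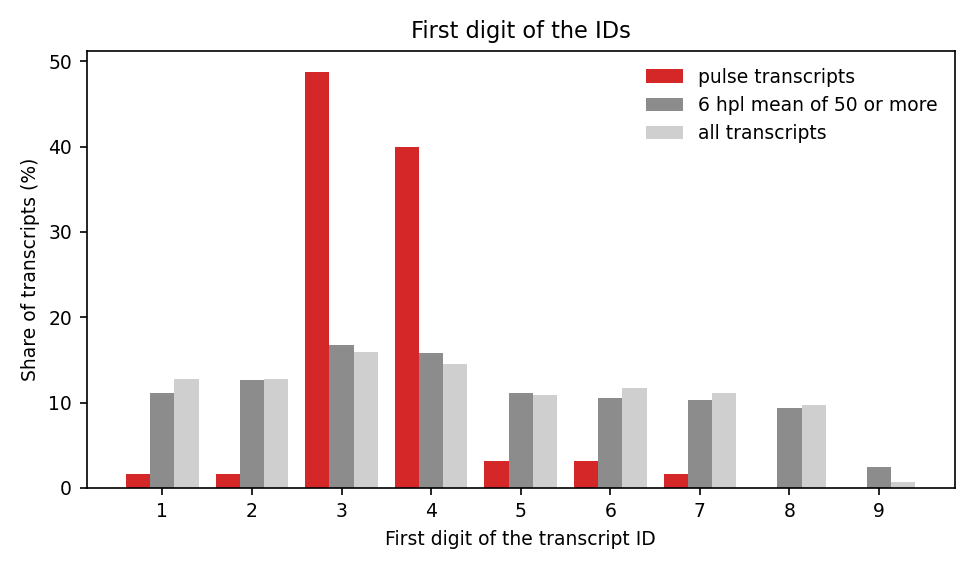
Share of transcripts (%) by the first digit of their ID, for the members, for transcripts with a 6 hpl mean of 50 or more and for the whole table. Digits 3 and 4 hold 48.8% and 40% of the members, against 15.9% and 14.5% of the table.

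A like imbalance was seen when the rule was turned to another group. Transcripts high only in intact eyes numbered 102, and 84.3% of them began with 1 or 2. Those high only at 1 dpl numbered 23, with 73.9% beginning with 5 or 6. For 4 dpl 270 passed, with 66.7% beginning with 7 or 8. Each high group thus had a digit pair of its own, and since the authors had assembled the reads of each condition separately before merging, the part of the assembly in these lists was not tested. The digit pairs were matched to groups after these shares had been seen.

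The 14 members with another first digit differed from the other 111 in abundance. Their 6 hpl means had a median of 343, against 89.6, and 9 of the 14 reached 200, against 13 of the 111. Transcripts 5_37365911 and 1_2796769 are among them. In the low groups the medians were also higher, at 10.8 against 8.11 in intact eyes and 24.1 against 12.2 at 1 dpl. The share of digits 3 and 4 lay between 82.5% and 91.9% over 8 other settings of the rule's thresholds, pseudocount and scaling, all with a gap of 1 or more. With a 6 hpl mean of 50 or more, a gap only above 0 and no window, it was 64.7%. It ran from 80.6% to 90.5% with libraries left out.

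Close ID numbers were few among the members, and no like count was made for other sets of this size. Only 6 had another member within 10 numbers, as 3 pairs at distances of 1, 2 and 4. A pair at a distance of 2 was formed by 3_19244127 and the member with the third largest gap, which stood at 81.2, 51.3 and 48.2 at 6 hpl and at 0.78 to 2.26 at 4 dpl. Members of such a pair may come from 1 gene, and they are then not separate cases of the pulse.

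Set beside the other groups, fewer transcripts met the rule at 6 hpl than at 4 dpl and more than at 1 dpl, and the order of 6 hpl and intact eyes turned with the scaling. The 125 transcripts were 0.193% of those with a 6 hpl mean of 50 or more. The corresponding shares were 0.163% for intact eyes, 0.0362% for 1 dpl and 0.415% for 4 dpl. With equal totals 85 transcripts passed for 6 hpl, 135 for intact eyes, 27 for 1 dpl and 217 for 4 dpl. With scaling on abundant transcripts the numbers were 104 for 6 hpl, 180 for intact eyes, 21 for 1 dpl and 234 for 4 dpl. These differences were not tested. Transcripts high at both 6 hpl and 1 dpl and low in the other groups numbered 44. The median gap was 1.83 for the 6 hpl pulse, 1.90 for intact eyes, 1.85 for 1 dpl and 1.92 for 4 dpl, values that the common threshold of 1.5 holds close together. The largest gap was 4.73 for 6 hpl and 4.91 for 4 dpl.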

How the data were processed

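Bulk RNA-seq of 12 dorsal iris libraries was analysed. Per the labels and methods, the authors trimmed reads with Trim Galore, removed ribosomal reads by Bowtie2 against Silva, assembled each condition with Trinity, merged assemblies with DRAP runMeta and quantified transcripts with Salmon (sequence and GC bias corrections), averaging inferential replicates. Their versions, and the scaling of the values, are not given in the sources used here. Deposited values are described as TPM, but library sums (27737613 to 40770545) exceed the fixed sum of that unit, so they were treated as a normalised abundance signal, with the log-scale test laid out for TPM. The authors give an approximate sequencing depth, but the exact depth of each library is unknown, and intervals from counts were not computed.

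Differences were taken on log2(value + 1), which understates changes of low transcripts. Transcripts at 1 or more in at least 3 libraries (855254) were fitted with limma 3.58.1 in R 4.3.3 (group means, all 12 libraries, empirical Bayes with trend, two-sided, Benjamini-Hochberg threshold 0.05). The fit was also run on simulated normal draws with planted changes. That run checks the code only, since such draws do not copy the outlying libraries of these data. The authors used Swish, which needs inferential replicates. Descriptions used Python 3.11.15. The members, lists and tests were chosen with earlier results of these data known. IDs were printed for the 2 members with the largest rise and, of the others, the 2 with the largest fall to 1 dpl. Gene lists were not used, since the table pairs no ID with a name. Alternatives were other pseudocounts, thresholds, scalings (equal totals, or medians over transcripts with a mean of 100 or more), fits and left-out libraries.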

Additional observations from a re-analysis of the deposited data

How the results depend on the processing

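The number of transcripts meeting the rule was 259 with a 6 hpl mean of 20 or more, 57 with 100 or more, 360 with a gap of 1 or more and 45 with 2 or more, as looser or stricter thresholds must give. It was 85 with equal totals, sharing 82 (65.6%) of the 125 members, and 104 with scaling on abundant transcripts, sharing 95 (76%). It ranged from 123 to 203 when 1 library was left out (194 without 6 hpl replicate 2, 203 without 6 hpl replicate 3, 190 without 1 dpl replicate 1), and was 242, 248 and 263 without replicate 1, 2 or 3 of every group. Samples with the same replicate number did not deviate together on average (mean correlation -0.0019 over 18 pairs, from -0.19 to 0.05). Pairs with different numbers had a mean correlation of 0.0009 over 36 pairs, from -0.10 to 0.22. Group means were subtracted first, which ties the 2 means to each other, so the second is no separate comparison. The sources do not say how replicates were numbered, and whether a number marks a shared batch was not tested. With a replicate block, 124 members were called higher at 6 hpl against intact, beside 1.94% of all transcripts. From 6 hpl to 1 dpl 119 were called lower (0.284% of all), and at 1 dpl against intact 1 was called higher (1.88% of all). That last count, 3 as reported, was also 1 with scaling on abundant transcripts (1.57% of all) and 0 without the variance trend (1.69%). It was 0 with only the 2 groups compared (1.16%), and 1 to 3 with 1 library left out (1.15% to 1.95%). For 4 dpl against intact the count was 2 with a pseudocount of 0.1, beside 2.87% of all called higher. It was 0 to 2 with 1 library left out, beside 2.23% to 4.32%. For 1 dpl against 6 hpl it was 39 with only the 2 groups compared and 76 to 123 with 1 library left out, the lowest without 6 hpl replicate 1. Calls over all transcripts fell too, from 0.324% lower to 0.0154% with only the 2 groups compared and 0.0532% without that library. The cause of these moves was not tested, beyond the fewer libraries in the fit. With a held-out gap above 0 in place of 1.5, 94.8% of the transcripts chosen without replicate 2 passed. With 1 library left out, the members' median difference between 1 dpl and intact ran from 0.33 to 0.63, and that between 4 dpl and intact from 0.25 to 0.44. With a pseudocount of 0.1 the rise of 3_19244127 was 6.65. The unknown exact depth of each library limits values near 0. A two-sided exact permutation test of 3 libraries against 3 cannot reach a p of 0.05. Among the results recomputed, no median difference of the members and no difference of a transcript given by ID changed sign. The order of 6 hpl and intact eyes by the number of transcripts meeting the rule did turn with the scaling. The members' share wholly above intact at 4 dpl was 20.8% beside 13.3% of all as deposited. It was 8% beside 8.69% with scaling on abundant transcripts. Counts by non-overlap were recomputed under alternatives added after the data were seen.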

Other observations

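The 11 transcripts that stood apart in a pair of libraries were none of the members. Their values were 582 to 82066 in intact replicate 3, with a median of 9464. In 6 hpl replicate 1 they were 187 to 25729, with a median of 2288, and in 6 hpl replicate 2 they were 8.18 to 729.6, with a median of 82.5. In intact replicates 1 and 2 none exceeded 87.9, and at 1 and 4 dpl none exceeded 51.1. The 11 had passed the rule without replicate 3. Values below those of 6 hpl in replicates 1 and 2 of the other groups were therefore required by their choice. Of the 11, 8 had an ID beginning with 1 or 2 and 3 an ID beginning with 3 or 4.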
